A study of Homo sapiens with 34 samples.

Results

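FGF-ERK feedback and response genes are genes whose mRNA level is widely read as an output of fibroblast growth factor (FGF) signalling. The 9 members examined here are SPRY1, SPRY2, SPRY4, SPRED1, SPRED2, DUSP6, ETV1, ETV4 and ETV5, found by their symbols, each with 1 identifier, among the 37951 genes of both count tables. They were read against media with and without basic FGF (bFGF) in RNA-seq libraries of wild-type ESI017, a human embryonic stem cell line in established use. All 9 passed the filter on low counts, which 17895 genes passed.

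FGF ligands bind receptor tyrosine kinases, and the signal runs through RAS, RAF and MEK to the kinase ERK. ERK activity raises transcription of ETS factors of the PEA3 group (ETV1, ETV4 and ETV5) and of inhibitors that act back on the pathway: Sprouty proteins and SPREDs act upstream of ERK, and DUSP6 is a phosphatase that removes the activating phosphates from ERK itself. During gastrulation, FGF signalling is needed for mesoderm formation and for movement of cells through the primitive streak (PS).

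There were 17 conditions with 2 biological replicates each, 34 libraries in all. Control cells (Ctrl) stayed in mTeSR Plus, a maintenance medium that itself contains bFGF, for 48 h according to the labels. At 24 h, DE(a) cells had received 100 ng/ml activin and 2 µM CHIR99021 (CHIR, a GSK3 inhibitor that activates Wnt signalling) and no bFGF. All 3 PS media held 20 ng/ml bFGF: APS (anterior PS) with 30 ng/ml activin and 4 µM CHIR, MPS (mid PS) with 30 ng/ml activin, 40 ng/ml BMP4 and 6 µM CHIR, and PPS (posterior PS) with 40 ng/ml BMP4 and 6 µM CHIR but no activin. Each of these 4 populations then spent a second day in 1 of 3 media and was collected at 48 h, so that, for example, PPS-LM is PPS followed by LM. PM medium (paraxial mesoderm) was the day 2 medium with bFGF, at 20 ng/ml, together with 250 nM LDN-193189 (a BMP receptor inhibitor) and 1 µM A-8301 (an inhibitor of activin receptors). The study's methods list no CHIR for PM, but a legend does, and its text names Wnt activation as a part of PM induction. DE(b) medium (definitive endoderm) held 100 ng/ml activin and 250 nM LDN-193189, and LM medium (lateral mesoderm) held 30 ng/ml BMP4, 1 µM A-8301 and 4 µM IWP2, which blocks Wnt secretion. Because activin, BMP4, CHIR and inhibitors change together with bFGF, the effect of bFGF and that of the other factors cannot be told apart in any comparison of media with and without it.

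Values are estimated counts divided by the library total and scaled to a common total (CPM), and library totals ranged from 15522780 to 23439799 counts. CPM is not corrected for gene length, so levels are compared between conditions and never between genes. TBX6 was at 146 to 195 CPM in PM and HAND1 at 388 to 2127 CPM in LM. SOX17, an endoderm marker, was at 113 to 553 CPM in DE(b), with its lowest values after PPS. FOXA2, a second endoderm marker, was at 86.0 and 125 CPM in DE(b) after DE(a), 52.9 and 79.1 (APS), 17.1 and 37.8 (MPS) and 2.17 and 11.0 (PPS). The third, CXCR4, was at 9.25 and 17.5 CPM in PPS-DE(b) and was higher in PM than in DE(b) by 2.31 on the log2 scale (edgeR adjusted p = 2.88e-07). PPS-DE(b) also held the paraxial markers TBX6 (49.3 and 52.8 CPM) and MSGN1 (13.9 and 10.7 CPM), so FOXA2, CXCR4 and the paraxial markers go against its endoderm label, and DE(b) below names the medium; their part in the results was not tested. LM libraries also held the amnion markers TFAP2A at 23.2 to 167 CPM and GATA3 at 36.2 to 140 CPM. ISL1, which the study lists as an LM marker and found at high levels in its amnion-like cells, was at 10.8 to 94.8 CPM. None of the 3 passed 11.5 CPM in DE(b) or PM. Their part in the LM results was not tested, and in bulk RNA, fewer cells of a type and less RNA per cell cannot be told apart. SOX17 was at 72.7 and 3.75 CPM in DE(a)-PM and at 94.8 and 69.6 CPM in DE(a)-LM, but at most 5.06 CPM in every other PM or LM library. Endoderm markers were thus not confined to DE(b), but in PM and LM SOX17 was held mainly after DE(a), and in PM by a single library.

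On GRCh38 (GENCODE v44) the Sprouty genes lie at chr4:123396795-123403760 (SPRY1, plus strand), chr13:80335976-80341126 (SPRY2, minus strand) and chr5:142310427-142326455 (SPRY4, minus strand). SPRED1 lies at chr15:38252836-38357249 on the plus strand and SPRED2 at chr2:65310851-65432637 on the minus strand. DUSP6 is at chr12:89347235-89352501, ETV1 at chr7:13891229-13991425, ETV4 at chr17:43527844-43579620 and ETV5 at chr3:186046314-186110318, all on the minus strand. Promoter sequence from RefSeq (GRCh38.p14) was given for 7 of the 9 members, without ETV4 and ETV5. The 250 bases upstream of a start site are shown for DUSP6 and SPRY2. DUSP6 is the ERK phosphatase on which the day 2 results turn, and SPRY2 is a member with a different pattern. Capitals mark CCGGAA or its reverse complement TTCCGG, a form of the sequence that ETS factors bind. Shorter or other forms were not searched for, so a window without a match may still hold them.
DUSP6, chr12:89352502-89352751, minus strand: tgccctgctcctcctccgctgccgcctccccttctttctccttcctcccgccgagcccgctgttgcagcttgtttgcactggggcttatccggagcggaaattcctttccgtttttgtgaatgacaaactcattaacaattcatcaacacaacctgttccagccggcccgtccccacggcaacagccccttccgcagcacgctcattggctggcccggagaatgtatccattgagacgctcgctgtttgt
SPRY2, chr13:80341127-80341376, minus strand: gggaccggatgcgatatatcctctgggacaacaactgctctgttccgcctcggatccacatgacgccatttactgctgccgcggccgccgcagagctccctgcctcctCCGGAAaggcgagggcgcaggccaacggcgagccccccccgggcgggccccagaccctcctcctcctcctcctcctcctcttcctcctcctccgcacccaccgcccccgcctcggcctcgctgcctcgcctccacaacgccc
The SPRY2 window shown held 1 match, which began at position -142 from its start site, and the DUSP6 window held 0. The other SPRY2 windows, at chr13:80340109-80340358 and chr13:80339660-80339909, held 0 each. Matches were present in 5 of the 16 upstream windows of the 7 members, some of which overlap, and belonged to 3 genes (SPRY1, SPRY2 and ETV1). Of all 35116 windows of this length, 14.5% held one. A match describes the letters only and was not tested as a binding site.

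**Figure D1:**
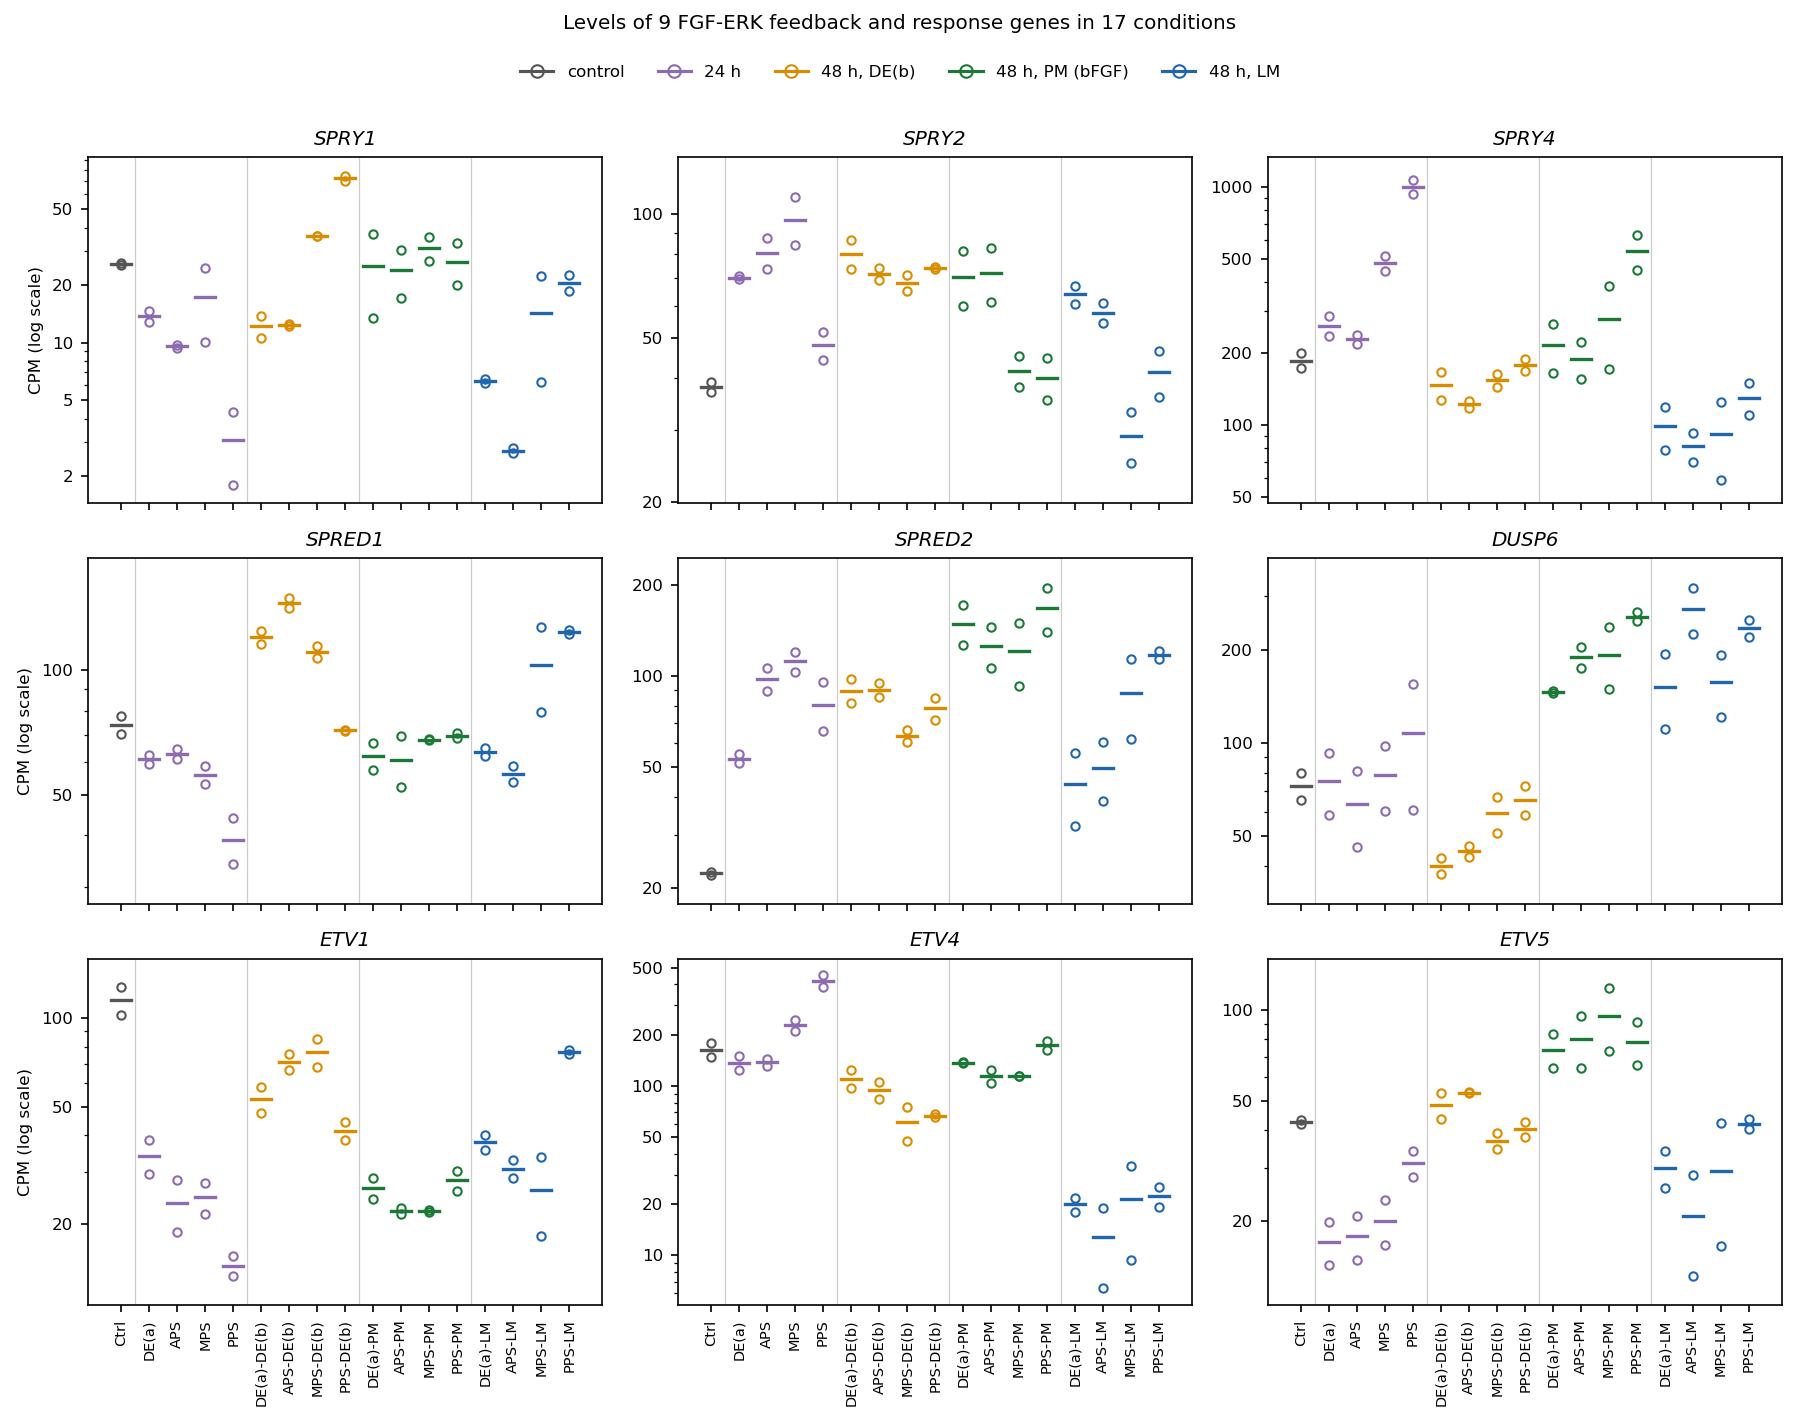
Level of each member in CPM on a log scale (vertical axis) in the 17 conditions (horizontal axis), with open circles for the 2 replicates and a bar for their mean. SPRY4 and ETV4 peak in PPS at 24 h and have their lowest mean in APS-LM. DUSP6 is lowest in DE(b) and high in both PM and LM, and SPRED2 is lowest in Ctrl.

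The widest ranges of condition means belonged to ETV4 and SPRY1. ETV4 ran from 12.8 CPM in APS-LM to 418 CPM in PPS, a ratio of 32.7, and SPRY1 from 2.72 CPM in APS-LM to 72.3 CPM in PPS-DE(b), a ratio of 26.6. SPRY4 spanned 12.3-fold, also between APS-LM and PPS. The narrowest ranges were those of SPRY2, 3.35-fold between MPS-LM and MPS, and SPRED1, 3.72-fold between PPS and APS-DE(b). DUSP6 (6.76-fold), SPRED2 (7.47-fold), ETV1 (7.98-fold) and ETV5 (5.62-fold) lay between them. These ratios compare the highest with the lowest of 17 means and were not tested.

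The first comparison asks how the members stood at 24 h against undifferentiated cells. In the 4 comparisons with Ctrl, 10 of 36 gene-by-medium values were higher and 8 lower (edgeR quasi-likelihood test, adjusted p under 0.05). Over all genes, 25.8% of values were called, 14.2% higher and 11.6% lower. The members did not move as a block: SPRED2 rose in all 4 media, ETV1 fell in all 4, and DUSP6 was called in none.

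Among the Sprouty genes, SPRY4 was higher than in Ctrl in MPS and PPS, the media with BMP4 and also with the highest CHIR dose. Its level was 200 and 173 CPM in Ctrl, 288 and 236 in DE(a), 239 and 220 in APS, 514 and 445 in MPS and 1068 and 936 in PPS. Both MPS libraries and both PPS libraries lay above all others at 24 h, and the log2 fold change against Ctrl was 1.46 (SE 0.36, edgeR adjusted p = 0.0036) in MPS and 2.45 (SE 0.38, edgeR adjusted p = 2.99e-05) in PPS. SPRY2 was 39.2 and 37.0 CPM in Ctrl, 70.8 and 69.5 in DE(a), 87.5 and 73.5 in APS, 110 and 84.1 in MPS and 44.3 and 51.8 in PPS. It was higher in DE(a) by 0.98, in APS by 1.16 and in MPS by 1.45 on the log2 scale (edgeR adjusted p = 0.00136, 0.000179 and 1.06e-05), and it was not called in PPS. SPRY1, in contrast, was lowest in PPS, at 4.35 and 1.81 CPM against 25.4 and 26.1 CPM in Ctrl, a log2 fold change of -3.02 (SE 0.55, edgeR adjusted p = 0.000195) that became -3.81 without PPS replicate 1.

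The 2 SPRED genes, whose products hold back RAF activation, differed from each other. SPRED2 was 22.7 and 22.2 CPM in Ctrl and 51.7 to 120 CPM in the 8 libraries at 24 h, with no overlap, and rose by 1.35 in DE(a), 2.20 in APS, 2.41 in MPS and 1.87 in PPS (log2, edgeR adjusted p between 7.28e-06 and 0.00457). SPRED1 fell in PPS only among the 4 media, from 70.1 and 77.7 CPM to 43.96 and 34.1 CPM (log2 fold change -0.90, SE 0.18, edgeR adjusted p = 0.000496).

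DUSP6, the ERK phosphatase, passed the test in none of the 4 media. It was at 80.2 and 65.4 CPM in Ctrl, 92.8 and 58.5 in DE(a), 81.4 and 46.2 in APS, 97.9 and 60.5 in MPS and 156 and 60.8 in PPS. Replicate 1 was higher in all 4 media, and the log2 fold changes against Ctrl ran from -0.11 to 0.60. The interval in PPS reached from -0.20 to 1.40, so these libraries do not separate no change from a change of that size.

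ETV1, an ETS factor, fell in every medium, from 103 and 127 CPM in Ctrl to 13.2 to 38.6 CPM at 24 h, and the groups did not overlap. Its log2 fold change was -1.66 in DE(a), -2.21 in APS, -2.13 in MPS and -2.98 in PPS (edgeR adjusted p between 1.31e-08 and 3.08e-05). ETV4 was 180 and 148 CPM in Ctrl, 152 and 124 in DE(a), 132 and 145 in APS, 211 and 247 in MPS and 384 and 451 in PPS. It was higher in PPS only among the 4 media (log2 fold change 1.37, SE 0.41, edgeR adjusted p = 0.0138), a call lost without PPS replicate 2 or either Ctrl library (adjusted p 0.0525 to 0.106). ETV5 was 41.9 and 43.3 CPM in Ctrl and 14.2 to 34.1 CPM at 24 h. Its fall was called in DE(a) (-1.23, edgeR adjusted p = 0.0273) and APS (-1.18, edgeR adjusted p = 0.0277), but without any 1 of the 4 libraries compared the first was lost (adjusted p 0.0547 to 0.191), and the second was lost without APS replicate 2 or either Ctrl library (0.0786 to 0.199).

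The 24 h media were then compared by whether they held bFGF. The mean of APS, MPS and PPS differed from DE(a) for 1 of 9 members, where 10.9% of all genes were called and 5.02% were lower. That gene was ETV1, which was lower in the bFGF media (log2 fold change -0.78, SE 0.19, edgeR adjusted p = 0.00903), and the call was lost without DE(a) replicate 2 (-0.57, adjusted p = 0.18). At an unadjusted p under 0.05 there were 4 members (SPRY4, SPRED2, ETV1 and ETV4), and DESeq2 called 3 (SPRY4, SPRED2 and ETV1). The estimate was 0.84 for SPRY4 (95% interval 0.21 to 1.48), 0.75 for ETV4 (0.04 to 1.46) and 0.09 for DUSP6 (-0.57 to 0.74).

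**Figure D2:**
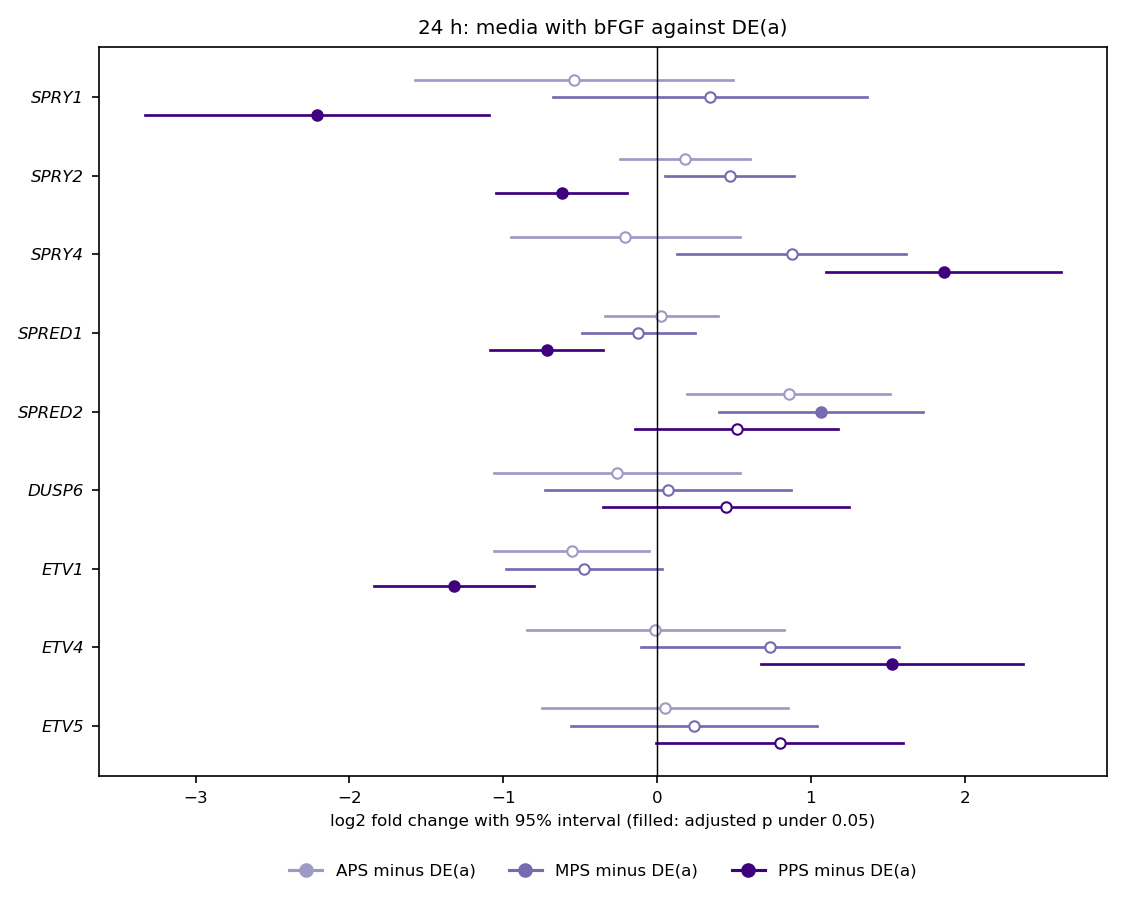
Log2 fold change of each member in APS, MPS and PPS minus DE(a) at 24 h (horizontal axis, log2), with 95% intervals from edgeR and filled symbols where the adjusted p was under 0.05. No APS value is filled, 1 MPS value is (SPRED2), and 6 PPS values are, in both directions.

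The PS media were then compared with DE(a) separately. In APS, which differs from DE(a) by the addition of bFGF, less activin and more CHIR, 0 of 9 members were called (0.732% of all genes were), with 2 (SPRED2 and ETV1) at an unadjusted p under 0.05 and 0 by DESeq2. The APS estimate was -0.20 for SPRY4 (95% interval -0.95 to 0.54), -0.26 for DUSP6 (-1.06 to 0.54), -0.01 for ETV4 (-0.85 to 0.82) and 0.05 for ETV5 (-0.75 to 0.85). These intervals leave room for changes of either sign. In MPS, 1 member was called (8.97% of all genes): SPRED2 was higher by 1.07 (edgeR adjusted p = 0.0386), and this was lost without any 1 of the 4 libraries (adjusted p 0.076 to 0.211).

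In PPS, 6 of 9 members differed from DE(a), against 20.9% of all genes. PPS libraries also held the amnion markers TFAP2A at 37.4 and 72.5 CPM and GATA3 at 51.5 and 56.5 CPM, and ISL1 at 36.8 and 30.5 CPM. DE(a) libraries held at most 2.74 CPM of any of the 3, and their part in these differences was not tested. SPRY4 was higher by 1.86 (SE 0.37, edgeR adjusted p = 0.000831) and ETV4 by 1.53 (SE 0.41, edgeR adjusted p = 0.0103), the latter lost without DE(a) replicate 2 or PPS replicate 2 (adjusted p 0.0605 and 0.0801). ETV1 (-1.32), SPRY1 (-2.21), SPRED1 (-0.72) and SPRY2 (-0.62) were lower, with edgeR adjusted p between 0.000549 and 0.0342. Without PPS replicate 2 the SPRY1 and SPRED1 calls were lost (-1.73, adjusted p = 0.0903, and -0.54, adjusted p = 0.103), without PPS replicate 1 the SPRY1 value was -3.00, and the SPRY2 call was lost without any 1 of the 4 libraries (0.0696 to 0.164).

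MPS and PPS media differ by activin alone according to the study's methods. Of the 9 members, 4 were lower in PPS than in MPS, where 6.14% of all genes were called. They were SPRY1 (-2.56, edgeR adjusted p = 0.00551), SPRY2 (-1.09, 0.00211), ETV1 (-0.85, 0.0449) and SPRED1 (-0.60, 0.0471). Of these, the ETV1 call was lost without any 1 of the 4 libraries (adjusted p 0.114 to 0.228) and the SPRED1 call without either MPS library or PPS replicate 2 (0.0811 to 0.463). The SPRY1 call was lost without MPS replicate 1 or PPS replicate 2 and the SPRY2 call without MPS replicate 1 (-0.86, adjusted p = 0.0782); the SPRY1 values ranged from -3.35 to -1.74. SPRY4 was 0.99 higher in PPS with an interval of 0.24 to 1.73 and was not called (edgeR adjusted p = 0.112). MPS and APS differed for 0 of 9 members (2.93% of all genes), with 1 (SPRY4) at an unadjusted p under 0.05, which DESeq2 also called.

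At 48 h, PM was the day 2 medium with bFGF, and 8 libraries of each medium could be compared. Averaged over the 4 day 1 treatments, 5 of 9 members were higher in PM than in DE(b) and 3 were lower, where 43.0% of all genes were called, 21.6% higher and 21.4% lower. Against LM, 5 were higher in PM and 2 lower (42.0% of all genes, 21.0% in each direction). LM was also compared with DE(b), the other medium without bFGF: 1 member was higher in LM and 7 were lower (39.6% of all genes, 19.8% in each direction).

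**Figure D3:**
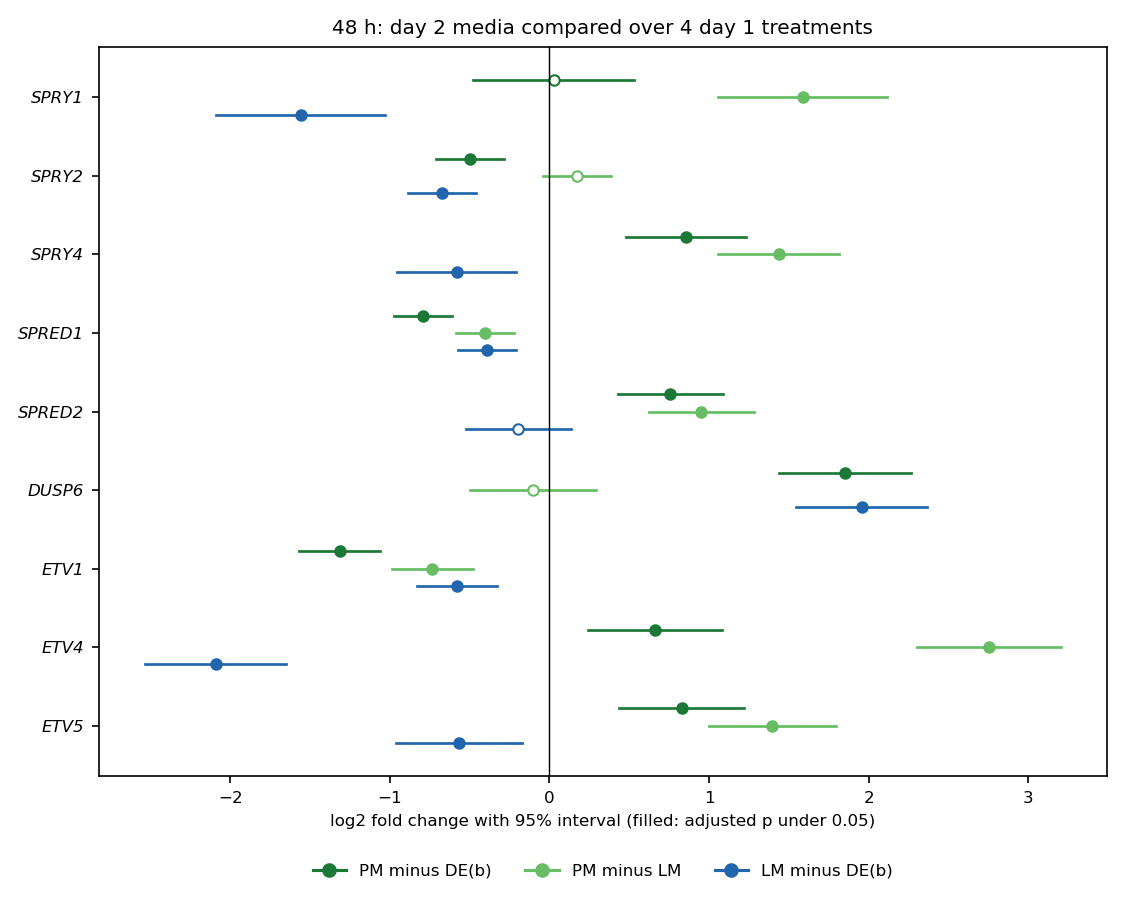
Log2 fold change of each member between day 2 media, averaged over the 4 day 1 treatments (PM minus DE(b), PM minus LM and LM minus DE(b)), with 95% intervals from edgeR and filled symbols where the adjusted p was under 0.05. DUSP6 is 1.85 higher in PM and 1.96 higher in LM than in DE(b), whereas ETV4 is 0.66 higher in PM and 2.09 lower in LM.

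Within single day 1 treatments, 8 of 36 values were higher and 9 lower in PM than in DE(b) (20.9% of all values, 9.93% and 10.9% by direction), 15 higher and 3 lower in PM than in LM (20.3%, 9.73% and 10.5%), and 6 higher and 14 lower in LM than in DE(b) (19.9%, 9.71% and 10.2%). In the averaged comparisons DUSP6 was the 1 member called higher than in DE(b) in both PM and LM. In DE(b) it was 42.6 and 37.7 CPM after DE(a), 46.6 and 42.7 (APS), 67.2 and 51.3 (MPS) and 72.7 and 58.6 (PPS). In PM it was 145 and 147, 204 and 175, 149 and 237, and 249 and 265 CPM in the same order. In LM, which holds no bFGF, it was 111 and 194, 225 and 318, 122 and 193, and 221 and 250 CPM. Every PM library and every LM library therefore lay above every DE(b) library, while PM and LM overlapped. DUSP6 was higher than in DE(b) by 1.85 in PM (SE 0.20, edgeR adjusted p = 7.84e-08) and by 1.96 in LM (SE 0.20, edgeR adjusted p = 3.68e-08), and PM minus LM was -0.10, with an interval of -0.50 to 0.29. Within single day 1 treatments it was called higher in 4 of 4 for PM against DE(b) (9.93% of all values), in 4 of 4 for LM against DE(b) (9.71%) and in 0 of 4 for PM against LM (20.3% in either direction), where 0 were also below an unadjusted p of 0.05 and 0 were called by DESeq2. Of those 8 calls, 5 held without any 1 library. LM against DE(b) after DE(a) was lost without DE(a)-LM replicate 2 (1.38, edgeR adjusted p = 0.0507). After MPS, the PM call was lost without replicate 2 of MPS-DE(b) or MPS-PM (adjusted p 0.0592 and 0.0651) and the LM call without replicate 2 of MPS-DE(b) or MPS-LM (0.109 and 0.144).

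SPRY4 showed another order on average, with PM highest and LM lowest, but LM against DE(b) was not called after any single day 1 treatment. Its DE(b) values ran from 118 to 190 CPM (median 155). In PM it was 166 and 266 CPM after DE(a), 156 and 224 (APS), 172 and 383 (MPS) and 448 and 630 (PPS). In LM it was 78.4 and 119, 69.9 and 92.4, 58.6 and 125, and 110 and 150 CPM. All 8 PM libraries lay above all 8 LM libraries, and replicate 2 was higher in every PM and LM condition. PM was higher than LM by 1.44 (SE 0.18, edgeR adjusted p = 9.55e-07) and than DE(b) by 0.86 (SE 0.18, edgeR adjusted p = 0.000472), and LM was lower than DE(b) by -0.58 (edgeR adjusted p = 0.0127). Within single day 1 treatments, SPRY4 was called higher in PM than in DE(b) after PPS only (1.52). That call was lost without replicate 2 of PPS-DE(b) or PPS-PM. Against LM it was called in 4 of 4 day 1 treatments (9.73% of all values were called higher), but only the call after PPS (1.98) held without each library. Without replicate 1 of the LM condition or replicate 2 of the PM condition, the calls after DE(a) (0.82 and 0.72), APS (0.94 and 0.88) and MPS (1.01 and 0.76) were lost, with adjusted p from 0.119 to 0.346. After MPS the value was 2.19 without MPS-LM replicate 2.

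SPRY1 and SPRY2 did not follow SPRY4. SPRY1 in PM (13.5 to 36.9 CPM, median 28.7) did not differ detectably from DE(b) (10.6 to 74.7 CPM, median 25.0), with an average log2 difference of 0.03 and an interval of -0.48 to 0.53. That average joins values of opposite sign, 0.99 after DE(a), 0.90 (APS), -0.26 (MPS) and -1.52 (PPS). The last was called (edgeR adjusted p = 0.0334), but not without either PPS-DE(b) library or PPS-PM replicate 2 (0.0964 to 0.264). It was lower in LM, at 2.63 to 22.6 CPM with a median of 6.34, by -1.56 against DE(b) (edgeR adjusted p = 3.22e-05), and PM was 1.59 above LM (edgeR adjusted p = 2.28e-05). SPRY2 had its highest median in DE(b), at 65.2 to 86.4 CPM, and lower by -0.50 in PM and by -0.67 in LM (edgeR adjusted p = 0.000359 and 1.25e-05). These decreases of SPRY2 were called after MPS and PPS only, with -0.75 and -0.96 in PM and -1.17 and -0.84 in LM. The PM call after MPS and the LM call after PPS were not kept without each library. After APS, mean levels were 72.2 CPM in PM and 71.6 CPM in DE(b). PM and LM differed in SPRY2 by 0.17, with an interval of -0.04 to 0.39.

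Of the SPRED genes, SPRED2 was higher in PM (92.8 to 196 CPM, median 143) than in DE(b) (60.6 to 97.6, median 83.2) by 0.76 and than in LM (32.2 to 121, median 61.3) by 0.95 (edgeR adjusted p = 0.000455 and 3.75e-05). Within single day 1 treatments, SPRED2 was called higher in PM than in DE(b) after PPS only (1.03), a call not kept without each library. LM minus DE(b) was -0.20, with an interval of -0.53 to 0.13. That average joins both signs. SPRED2 had lower estimates in LM after DE(a) (-1.06, a call not kept without each library) and APS, and higher estimates after MPS and PPS. SPRED1 had the opposite sign: all 8 DE(b) libraries, at 71.5 to 149 CPM, lay above all 8 PM libraries, at 52.4 to 70.5 CPM. PM was lower than DE(b) by -0.79 (SE 0.09, edgeR adjusted p = 1.29e-07) and than LM by -0.40, and LM was lower than DE(b) by -0.39 (edgeR adjusted p = 0.000702 and 0.000911). The last average joins both signs. LM minus DE(b) was -0.97 after DE(a), -1.36 (APS) and -0.03 (MPS). After PPS, SPRED1 was 0.79 higher in LM (edgeR adjusted p = 0.00216), a call kept without each library. PM minus LM was called after MPS (-0.71, but -0.28 without MPS-LM replicate 2) and PPS (-0.91) only. Mean SPRED1 levels were 60.8 CPM in PM and 56.3 CPM in LM after APS, and 62.1 and 63.7 CPM after DE(a).

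ETV4 and ETV5, which encode closely related ETS factors, were both highest in PM and, on average, lowest in LM. ETV4 was 97.5 and 124 CPM in DE(b) after DE(a), 83.7 and 105 (APS), 47.5 and 75.7 (MPS) and 65.8 and 68.1 (PPS). It was 137 and 138, 125 and 105, 115 and 114, and 185 and 164 CPM in PM, and only 18.1 and 22.0, 6.38 and 19.2, 9.46 and 33.9, and 19.4 and 25.4 CPM in LM. No LM library reached the lowest library of the other 2 media. PM was higher than LM by 2.75 (SE 0.22, edgeR adjusted p = 6.32e-10) and than DE(b) by 0.66 (SE 0.20, edgeR adjusted p = 0.0111), and LM was lower than DE(b) by -2.09 (SE 0.21, edgeR adjusted p = 3.96e-08). Within single day 1 treatments, ETV4 was called higher in PM than in DE(b) after PPS only (1.31). That call was lost without any 1 of the 4 libraries. The differences from LM were called in 4 of 4 day 1 treatments against PM and in 4 of 4 against DE(b), with 10.2% of all values called lower in the latter. LM against DE(b) was lost after MPS without MPS-LM replicate 1 (-0.76, adjusted p = 0.235) or MPS-DE(b) replicate 2 (-1.05, 0.196), and after PPS without PPS-LM replicate 1 (0.111). Leaving out 1 LM library also moved the PM minus LM value after APS (2.48 without replicate 1, 4.16 without replicate 2) and after MPS (1.61 and 3.53), and the LM minus DE(b) value after APS (-2.26 and -3.95) and, without replicate 2, after MPS (-2.69).

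ETV5 was 34.6 to 53.4 CPM in DE(b) (median 42.9), 63.9 to 118 CPM in PM (median 77.9) and 13.1 to 43.4 CPM in LM (median 31.3). The 8 PM libraries overlapped with neither of the other media. PM was higher than DE(b) by 0.83 and than LM by 1.40 (edgeR adjusted p = 0.000993 and 2.80e-06). Within single day 1 treatments, ETV5 was called higher in PM than in DE(b) after MPS only (1.34), a call not kept without each library. LM was lower than DE(b) by -0.57 (edgeR adjusted p = 0.0209), a call lost without DE(a)-LM, APS-LM or MPS-LM replicate 1 (adjusted p 0.0541 to 0.0627). Of the single day 1 treatments, APS alone gave a call for LM against DE(b) (-1.34), which was not kept without each library. After PPS, ETV5 was 43.4 and 40.4 CPM in LM against 42.3 and 37.9 CPM in DE(b). ETV1 differed from its 2 relatives in sign. It was 38.5 to 84.7 CPM in DE(b), above every PM library (21.5 to 30.3 CPM), and lower by -1.32 in PM (SE 0.12, edgeR adjusted p = 8.81e-09) and by -0.58 in LM (edgeR adjusted p = 0.000464). PM minus LM was -0.73 on average and was called. The average of LM minus DE(b), in contrast, joins both signs, -0.53 after DE(a), -1.20 (APS), -1.49 (MPS) and 0.90 (PPS). After PPS, ETV1 was higher in LM than in DE(b) (edgeR adjusted p = 0.0104), but the call was lost without PPS-DE(b) replicate 1 (0.80).

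**Figure D4:**
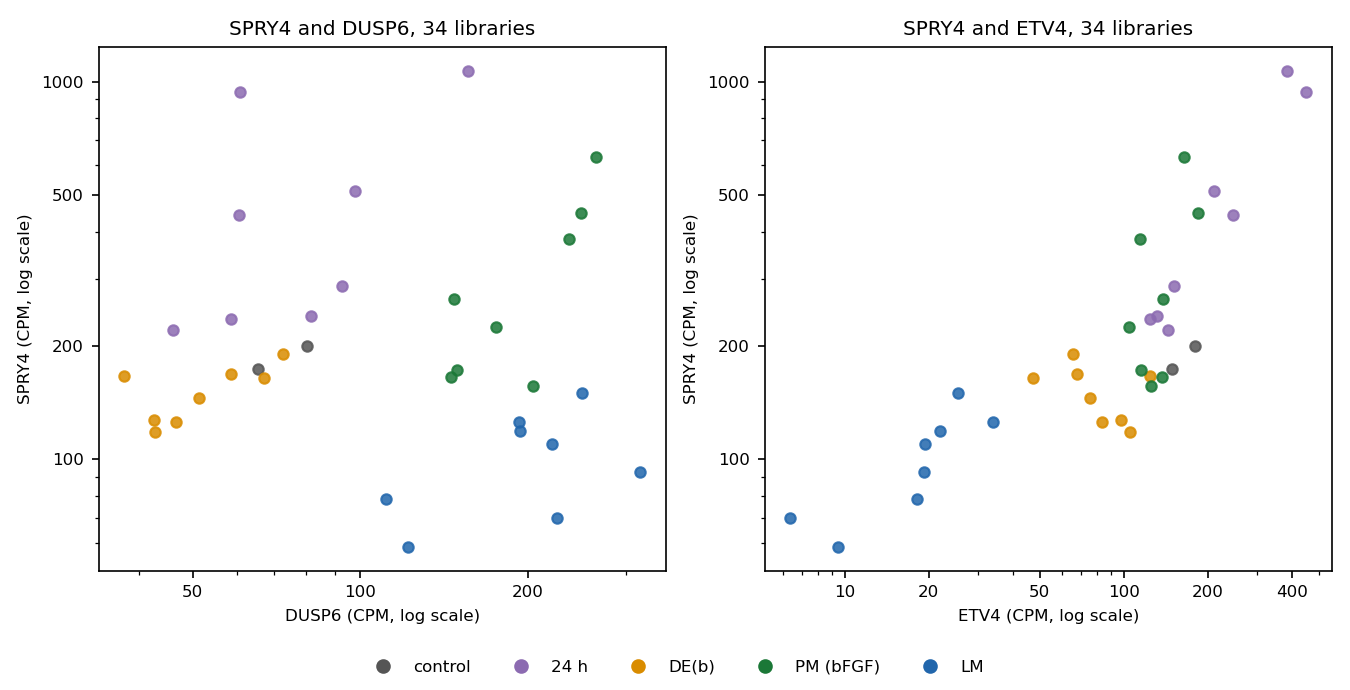
SPRY4 against DUSP6 and SPRY4 against ETV4 in the 34 libraries (CPM, log scales on both axes), coloured by medium. LM libraries sit at 111 to 318 CPM of DUSP6 but at 58.6 to 150 CPM of SPRY4 and 6.38 to 33.9 CPM of ETV4, the lowest range of the day 2 media for both.

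The members thus did not share 1 pattern across day 2 conditions. Over the 12 condition means of log2(CPM + 1) at 48 h, Pearson's r was 0.898 for ETV4 with ETV5, 0.833 for SPRED2 with ETV5, 0.82 for SPRY4 with ETV5 and 0.817 for SPRY4 with ETV4. SPRED1 went with ETV1 (0.787), and DUSP6 had an r of -0.294 with ETV4, 0.035 with ETV5 and -0.607 with SPRY2. With the 24 h and control means added (17 conditions), ETV4 with ETV5 fell to 0.213 while SPRY4 with ETV4 was 0.856. These values describe conditions that share media and day 1 treatments, and none was tested.

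Moving from day 1 to day 2, each condition was compared with its own day 1 population. Between the days bFGF was withdrawn, kept or newly added, except in DE(a)-DE(b) and DE(a)-LM, which held none on either day. Of 108 gene-by-condition values, 29 were higher and 21 lower, where 27.0% of all values tested were called, 13.2% higher and 13.8% lower. ETV4 and SPRY4 went only down (7 of 12 conditions each), and SPRED1 (7), ETV5 (6), DUSP6 (5) and ETV1 (5) went only up among the values called. Of these, the fall of ETV4 into PM after PPS was lost without any 1 of its 4 libraries (adjusted p up to 0.15), as was the fall of SPRY4 into DE(b) after APS (0.107 to 0.185). The rise of ETV5 into DE(b) was lost after DE(a) without DE(a) replicate 2 (1.23, adjusted p = 0.0829) and after APS without APS replicate 2 (1.33, 0.0574). Into PM after PPS, the rise of SPRED1 was lost without PPS replicate 2 (0.63, adjusted p = 0.0584) and that of ETV1 without PPS replicate 1 or PPS-PM replicate 2 (0.0756 and 0.0854).

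**Figure D5:**
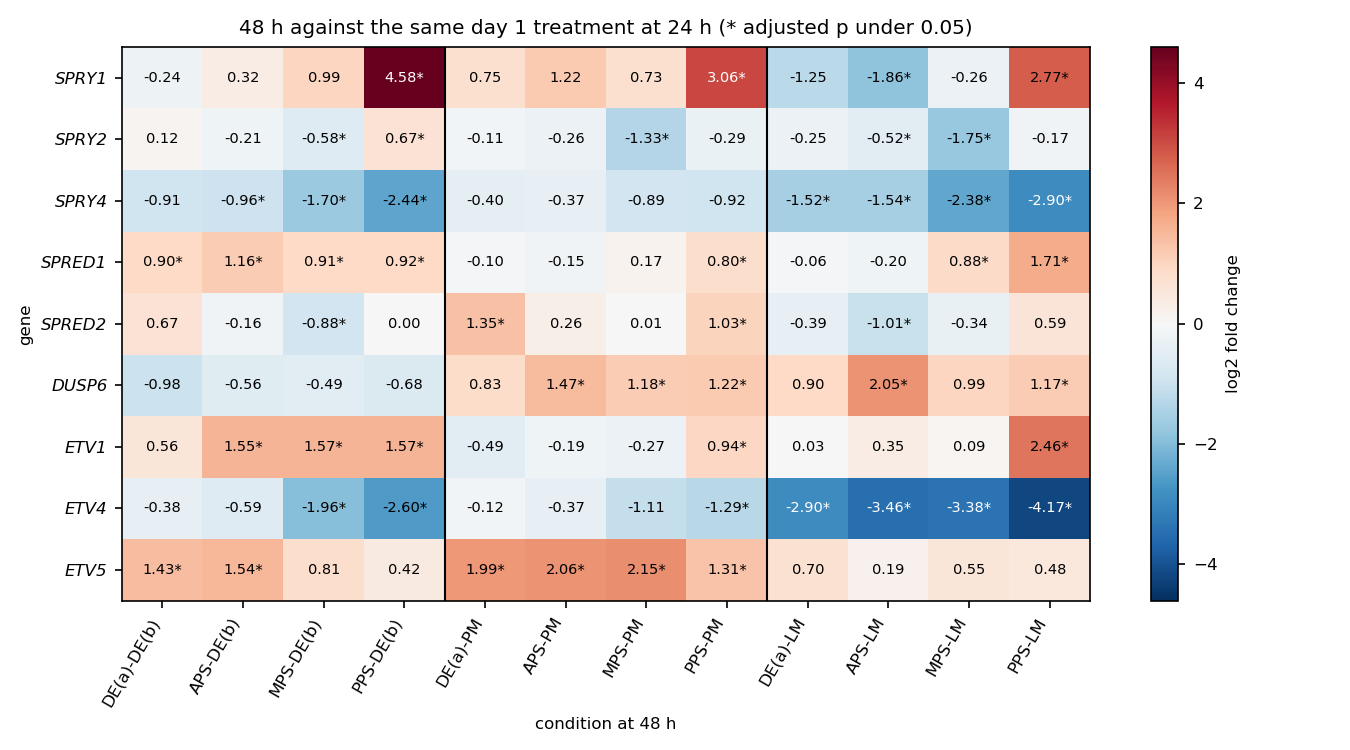
Log2 fold change of each member (rows) in the 12 conditions at 48 h (columns) against their own day 1 population at 24 h, as a colour scale from lower to higher, with an asterisk where the edgeR adjusted p was under 0.05. ETV4 and SPRY4 are lower in all 4 LM conditions and ETV5 is higher in all 4 PM conditions.

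On the move into LM, ETV4 fell by 2.90 to 4.17 and SPRY4 by 1.52 to 2.90 on the log2 scale in all 4 conditions (edgeR adjusted p at most 2.72e-05 for ETV4 and 0.00281 for SPRY4). The SPRY4 call after DE(a) was lost without DE(a)-LM replicate 1 (-1.22, adjusted p = 0.0538), and SPRY4 after MPS was -3.07 without MPS-LM replicate 2. ETV4 after APS was -2.85 without APS-LM replicate 1 and -4.51 without replicate 2, and after MPS it was -2.72 and -4.63 without those of MPS-LM. DUSP6 went the other way in LM, rising by 2.05 after APS and 1.17 after PPS (edgeR adjusted p = 0.000306 and 0.0302). The second of these was lost without PPS-LM replicate 1, PPS replicate 2 or PPS-LM replicate 2 (adjusted p up to 0.337), and without PPS replicate 1 it was 2.01.

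On the move into PM, ETV5 rose by 1.99 after DE(a), 2.06 (APS), 2.15 (MPS) and 1.31 (PPS) (edgeR adjusted p 0.000331 to 0.0168), the last lost without PPS or PPS-PM replicate 2 (0.132 and 0.146). DUSP6 rose after APS (1.47), MPS (1.18) and PPS (1.22). Each of these 3 calls was lost without at least 1 library: APS replicate 2 (adjusted p = 0.111), either replicate 2 of MPS and MPS-PM (0.247 and 0.296), and PPS-PM replicate 1, PPS replicate 2 or PPS-PM replicate 2 (up to 0.323). The PPS value was 2.06 without PPS replicate 1. SPRED1 rose into DE(b) in 4 of 4 conditions, by 0.90, 1.16, 0.91 and 0.92 (edgeR adjusted p 3.03e-05 to 0.000617). SPRY1 rose after PPS in every medium, by 4.58 into DE(b), 3.06 into PM and 2.77 into LM (edgeR adjusted p 4.55e-06 to 0.000538), from its low of 4.35 and 1.81 CPM, and the 3 values were 5.37, 3.84 and 3.56 without PPS replicate 1.

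Against the maintenance medium, 35 of 108 values at 48 h were higher and 22 lower (37.5% of all values tested, 19.8% higher and 17.7% lower). SPRED2 was higher than in Ctrl in 12 of 12 conditions, by 0.96 to 2.90, and ETV1 was lower in 10 of 12. The SPRED2 call was lost in DE(a)-LM without DE(a)-LM replicate 2 or either Ctrl library (adjusted p up to 0.411) and in APS-LM without APS-LM replicate 2 (0.111), and the ETV1 call in APS-DE(b) without either of its libraries or Ctrl replicate 2 (up to 0.231). DUSP6 was higher in 3 of 4 PM and 4 of 4 LM conditions and was called in 0 of 4 DE(b) conditions, where its estimates ran from -0.83 to -0.08, with 1 (after DE(a)) at an unadjusted p under 0.05 and 0 called by DESeq2. The DUSP6 calls in PPS-PM, APS-LM and PPS-LM held without each library, whereas APS-PM was lost without Ctrl replicate 2 (0.0792), MPS-PM and MPS-LM without Ctrl replicate 2 or their own replicate 2 (up to 0.113 and 0.19), and DE(a)-LM without its replicate 2 or either Ctrl library (up to 0.412). ETV4 was lower in 4 of 4 LM conditions, by up to 3.63 on the log2 scale, and in DE(b) after MPS and PPS, where the calls were lost without Ctrl replicate 1 and 1 or 2 of the DE(b) libraries (MPS-DE(b) replicate 1, and either of PPS-DE(b), adjusted p up to 0.122 and 0.114). Without APS-LM replicates 1 and 2 in turn the APS-LM value of ETV4 was -3.02 and -4.70, and without those of MPS-LM its value was -2.14 and -4.07. In APS-LM and PPS-LM, DUSP6 was thus above the control in a medium without bFGF while ETV4 was below it.

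Whether the day 1 medium was still seen at 48 h was tested jointly over the 4 day 1 treatments within each day 2 medium, and 10 of 27 values were called (14.6% of all values tested). In DE(b), 3 of 9 members were called (16.6% of all genes). SPRY1 was 13.8 and 10.6 CPM after DE(a), 12.46 and 12.2 (APS), 36.2 and 36.2 (MPS) and 74.7 and 69.9 (PPS) (edgeR adjusted p = 0.000674). Levels were thus higher after MPS and PPS, the day 1 media with BMP4 and also with the highest CHIR dose, whose parts cannot be told apart. SPRED1 ran the other way after PPS, at 71.5 and 72.0 CPM against 107 to 149 CPM after the other treatments (edgeR adjusted p = 0.00245). ETV1 passed at 0.0453, which was lost without any 1 of the libraries but DE(a)-DE(b) replicate 1 and MPS-DE(b) replicate 2 (adjusted p up to 0.243).

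In PM, 2 members were called (7.47% of all genes). SPRY2 was 59.8 to 82.9 CPM after DE(a) and APS and 35.4 to 45.3 CPM after MPS and PPS, without overlap (edgeR adjusted p = 0.00724). SPRY4, at 448 and 630 CPM after PPS, passed at 0.0191, but not without PPS-PM replicate 2 (0.315) or APS-PM replicate 1 (0.0564). In a fit of the compared libraries alone neither was called (0.167 and 0.261). In LM, 5 members were called (19.6% of all genes): SPRED1 (edgeR adjusted p = 3.17e-05), ETV1 (0.000105), SPRY1 (0.0011), SPRY2 (0.00264) and SPRED2 (0.00282). ETV1 was 77.8 and 75.6 CPM after PPS and 18.2 to 40.0 CPM after the other treatments, and SPRED1 was 125 and 122 CPM after PPS and 53.7 and 58.9 CPM after APS. DUSP6, ETV4 and ETV5 had edgeR adjusted p of at least 0.245 in all 3 media, with 0 of 9 values under an unadjusted p of 0.05 and 0 called by DESeq2. In LM, however, ETV4 was called without MPS-LM replicate 1 (0.0391) or APS-LM replicate 2 (0.0329), and ETV5 without replicate 2 of APS-LM (0.0459) or MPS-LM (0.0394). The differences between day 2 media depended on the day 1 treatment for 3 of 9 members in the joint interaction test (13.1% of all genes), namely SPRED1 (edgeR adjusted p = 6.68e-05), ETV1 (0.000755) and SPRED2 (0.0451).

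When the bFGF day 1 media were averaged and compared with DE(a) within a day 2 medium, 3 of 27 values were higher and 1 lower (9.06% of all values tested, 2.94% higher and 6.12% lower). SPRY1 was the 1 member called in DE(b) (8.38% of all genes), where it was higher by 1.40 (edgeR adjusted p = 0.0493), which was lost without any 1 of the 8 libraries (adjusted p 0.0666 to 0.401). SPRED1 (0.59) and SPRED2 (0.95) were higher and SPRY2 (-0.55) lower in LM (14.2% of all genes were called). SPRED1 was lost without either DE(a)-LM library, SPRED2 without DE(a)-LM replicate 1 or replicate 2 of APS-LM or MPS-LM (0.58 at the lowest), and SPRY2 without any replicate 1 of the 4 LM conditions or DE(a)-LM replicate 2 (adjusted p up to 0.273). In PM 0 of 9 were called (4.62% of all genes), with 1 (SPRY2) at an unadjusted p under 0.05 and 0 by DESeq2.

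The other genes of the pathway were taken from lists by role. Of 19 further feedback and response genes, 10 were higher and 7 lower in PM than in DE(b) (43.0% of all genes were called, median log2 fold change 0.54, against 0.01 over all genes), 13 higher and 4 lower in PM than in LM (42.0%, median 0.55), and 4 higher and 7 lower in LM than in DE(b) (39.6%, median -0.18). The immediate early genes EGR1 and EGR3 were highest in PM. EGR1 was 27.7 to 240 CPM in PM, 0.99 to 8.67 CPM in DE(b) and 0.97 to 4.06 CPM in LM, a log2 difference of 5.40 from DE(b) and 5.58 from LM (edgeR adjusted p = 2.63e-06 and 1.75e-06). EGR3 was 1.45 to 38.5 CPM in PM and at most 0.44 CPM in the other media. DUSP4, a nuclear ERK phosphatase, and IER3 had the reverse order: DUSP4 was 101 to 619 CPM in DE(b), 7.53 to 19.1 CPM in PM and 2.89 to 33.2 CPM in LM, and IER3 was 153 to 326 CPM in DE(b), 7.27 to 23.6 CPM in PM and 11.99 to 22.1 CPM in LM.

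Further members of that list named by the same rule were FLRT3 and MYC, lower in PM than in LM by -2.76 and -1.76, and SPRY3 and CCND1, higher in LM than in DE(b) by 2.20 and 0.96 (edgeR adjusted p between 8.20e-14 and 3.53e-09 for FLRT3, SPRY3 and CCND1 and 7.54e-08 for MYC). IL17RD, a membrane inhibitor of FGF signalling that was picked out after its values had been seen, was 328 to 721 CPM in PM, 246 to 363 CPM in DE(b) and 22.4 to 70.7 CPM in LM, the order that ETV4 and SPRY4 showed. At 24 h, bFGF media against DE(a), 1 of the 19 genes was higher (CCND1, 0.57) and 3 were lower (10.9% of all genes were called), with MYC (-1.51) and DUSP5 (-1.17) lowest (median -0.23).

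Of 18 FGF ligand genes, 14 were tested: 7 were higher and 1 lower in PM than in DE(b) (43.0% of all genes), 6 higher and 3 lower in PM than in LM (42.0%), and 3 higher and 4 lower in LM than in DE(b) (39.6%). FGF8 was 4.63 to 72.8 CPM in PM, 9.93 to 21.9 CPM in DE(b) and at most 0.13 CPM in LM, and FGF17 was 53.2 to 243 CPM in PM, 10.6 to 1190 CPM in DE(b) and 0.55 to 8.51 CPM in LM. FGF10 and FGF19 had their highest medians in LM, FGF10 at 21.7 to 131 CPM and FGF19 at 5.74 to 339 CPM. FGF2, which encodes bFGF, was 24.0 to 65.3 CPM in DE(b) and 24.5 to 65.2 CPM in PM. Among 5 receptor genes, FGFR2 was 131 to 439 CPM in LM, 27.2 to 55.8 CPM in DE(b) and 4.53 to 21.2 CPM in PM, and FGFR3 was 39.3 to 245 CPM in LM against 9.63 to 35.6 CPM in PM. FGFR1 was 263 to 772 CPM over the 24 day 2 libraries.

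Of 27 core genes of the pathway, from adaptors to ERK, 3 were higher and 8 lower in PM than in DE(b) (43.0% of all genes, median -0.05), 4 higher and 6 lower in PM than in LM (42.0%, median -0.01), and 2 higher and 9 lower in LM than in DE(b) (39.6%, median -0.06). MAP2K1, which encodes MEK1, was 133 to 191 CPM in DE(b), 54.3 to 86.4 CPM in PM and 47.1 to 71.5 CPM in LM, lower by -1.37 and -1.50 (edgeR adjusted p = 2.20e-12 and 5.19e-13). KSR1, a scaffold for RAF and MEK, was lower in PM than in DE(b) by -1.16 and than in LM by -1.77.

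Readouts of the other pathways changed between the same media. The Wnt feedback gene AXIN2 was 137 to 345 CPM in PM, 52.6 to 108 CPM in DE(b) and 12.6 to 24.2 CPM in LM, and 4 of 4 Wnt feedback genes were higher in PM than in either other medium. ID1, a BMP target, was 85.9 to 363 CPM in LM and at most 53.6 CPM in PM and DE(b). NODAL, an activin target, was 114 to 270 CPM in DE(b) and at most 6.97 CPM in PM and LM. Their part in the differences of the FGF-ERK genes was not tested.

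For each member, the 3 genes with the most similar pattern over the 17 condition means were found among 12263 genes by Pearson's r of log2(CPM + 1). SPRY4 was most like PAQR9 (0.929), AMER1 (0.916) and CCNJ (0.915), ETV4 most like DSEL (0.946), CCDC88C (0.941) and PSEN2 (0.936), and DUSP6 most like AFAP1L2 (0.929), FKBP15 (0.912) and MYLK (0.91). ETV5 was most like CST3 (0.929), RGS14 (0.917) and TSPAN15 (0.91), and ETV1 most like ECH1 (0.876), INTS6 (0.872) and FOXO1 (0.862). SPRED2 went with PTK7 (0.913), DSP (0.906) and ZNF800 (0.877), and SPRED1 with GYG2 (0.844), WNK1 (0.839) and GLRX (0.835). The lowest values were those of SPRY1, with ELAVL1 (0.861), PPP6C (0.824) and CTDSPL2 (0.815), and SPRY2, with ITGA9 (0.825), DAB1 (0.82) and SLC22A15 (0.819). With a pseudocount of 0.1 the 3 genes of SPRY2 became GSC (0.844), EOMES (0.83) and ITGA9 (0.826), and the third gene became HEATR5B (0.833) for SPRED1 and TRIL (0.909) for ETV5, while the other 6 members kept theirs. No member was among the 3 genes most like another member.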

How the data were processed

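RNA-seq of poly(A) RNA was carried out on 34 libraries of ESI017 cells, 2 for each of 17 conditions. The authors quantified reads with Salmon 1.10.2 against a GRCh38 (hg38) transcriptome and summed transcripts to genes in R 4.4.2. The values analysed here are the deposited estimated counts, scaled neither for depth nor for length. The 2 replicates were deposited as separate tables, and 0 count columns were left unmatched.

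Estimated counts were rounded and tested with edgeR 4.0.16 (R 4.3.3, limma 3.58.1): TMM (factors 0.934 to 1.07), filterByExpr by condition (17895 of 37951 genes), 1 mean per condition, quasi-likelihood tests and Benjamini-Hochberg adjustment over all genes tested at 0.05. The fit had a common dispersion of 0.0611 on 17 residual degrees of freedom. Errors of log2 fold changes are standard errors (SE), and 3 counts were taken as the floor of a library. The precision of depth covers counting error only.

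The members, lists and comparisons were chosen with earlier results of these data known. All members were named. From other lists, at most the 2 highest and 2 lowest called genes with at least 10 CPM in a group were named, and likeness used a pseudocount of 1 CPM. Where 1 symbol had several identifiers (IER3, HRAS, POU5F1 and GATA4), that with the highest mean was used. Antisense RNAs of members were not analysed here.

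Alternatives were RLE size factors, library totals, no filter, a replicate block, only the libraries compared, DESeq2 1.42.0, and each library left out in turn, for which the dispersion trend of the fit to all libraries was kept. The steps were tested on simulated data. Figures were drawn with matplotlib 3.10.9.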

Additional observations from a re-analysis of the deposited data

Results flagged for a closer look

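For 3 members, the difference between day 2 media depended on the day 1 treatment by the joint interaction test over the 12 conditions at 48 h, which called 13.1% of all genes. SPRED1 had an edgeR adjusted p of 6.68e-05: its LM minus DE(b) difference was -0.97 on the log2 scale after DE(a), and -1.36, -0.03 and 0.79 after APS, MPS and PPS. ETV1 had 0.000755 in the same edgeR test, with differences of -0.53, -1.20, -1.49 and 0.90 in that order. Both genes were thus lower in LM than in DE(b) after APS and higher after PPS, but the ETV1 call after PPS was lost without PPS-DE(b) replicate 1 (0.80, edgeR adjusted p = 0.105). SPRED2 had 0.0451 by edgeR, with -1.06, -0.85, 0.54 and 0.59, and its call was lost without 13 of the libraries, each left out alone (adjusted p up to 0.122), and when the fit held the 48 h libraries alone (0.0929). The amnion markers were higher in LM than in DE(b), and their part in these differences was not tested.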

How the results depend on the processing

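No called log2 fold change of a member changed sign under any of the 6 alternatives or without any 1 library (219 called of 468 values). The calls among members for bFGF media against DE(a) at 24 h numbered 1, and 2 with library totals only, 5 with no filter, 3 with the replicate block, 4 with only the libraries compared, 3 with DESeq2 and 0 to 2 without 1 library. For the day 1 treatment within a day 2 medium, 10 calls became 18 with no filter and 9 to 12 without 1 library, and for the interaction 3 became 9 with no filter, 5 with DESeq2 and 2 to 5 without 1 library. The cause was not tested. Without 1 library the other counts were 15 to 18 (24 h against control, 18 in full), 44 to 52 (day 2 against own day 1, 50 in full), 44 to 58 (48 h against control, 57 in full), 7 to 8 (LM against DE(b), 8 in full), 8 to 8 (PM against DE(b)) and 7 to 7 (PM against LM). Of the 219 called values, 136 held without each library, and 83 were lost without at least 1. Among the 24 called in the 4 averaged comparisons, 22 held. When 1 library was left out, 119 of 2340 refitted values changed sign, none of them called and the largest of size 0.75. Among the averaged comparisons, in bFGF media against DE(a) at 24 h SPRY2 ranged from -0.0634 to 0.0768 and DUSP6 from -0.20 to 0.45, in PM minus DE(b) SPRY1 ranged from -0.19 to 0.16, and in PM minus LM DUSP6 ranged from -0.21 to 0.0224.

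Samples with the same replicate number correlated weakly in their deviations from the condition means (median r 0.076, -0.074 to 0.34 over 136 pairs of conditions, 43 over 0.1), so the numbers were not taken to pair the samples, although in 17 of 17 conditions the libraries correlated best with their own number, a hint from the data and not from the design. With the replicate block, 15 more log2 fold changes were called and 0 were lost, and the interaction calls went from 3 to 4, with SPRY1 at 0.0347. Which replicate was higher went with the medium for some members. For DUSP6 it was replicate 1 in 4 of 4 DE(b) and replicate 2 in 4 of 4 LM conditions, whereas SPRED1 split 2 and 2 in LM. The averaged comparisons took all libraries of a medium as independent, and the replicate block cannot absorb shifts that differ between media. If libraries share such shifts, the averaged p-values are too small, which was not tested. With 2 libraries per condition and levels in CPM, small changes of single conditions are poorly resolved.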
